A study of Homo sapiens with 10 samples.

Results

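The 7 long non-coding RNAs MALAT1, NEAT1, KCNQ1OT1, TUG1, NORAD, OIP5-AS1 and MIR17HG were followed through N6-methyladenosine (m6A) maps of 5 human colon cancer cell lines. A peak belonged to a lncRNA when its summit lay in that gene's span on the genome build hg19, with span edges set to the nearest 1 kb. The spans are gene positions and use no measured value, though the 7 genes were picked with earlier results of these data known. They took in 21 of the 38106 deposited peaks, and all 21 lay in 4 genes. MALAT1 held 8 peaks, NEAT1 6, TUG1 4 and NORAD 3, while KCNQ1OT1, OIP5-AS1 and MIR17HG held none in any list used here. RefSeq lists 6 of the 7 genes as lncRNA and TUG1 as protein coding.

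The lines were HCT116, HT29 and HCT15, labelled colorectum, and COLO320DM and COLO205, labelled colon. All are established cancer lines grown in DMEM with 10% fetal bovine serum, and the labels name no treatment. Each gave 1 m6A immunoprecipitation (IP) and 1 input library from about 300 µg of total RNA, broken to about 100 nt, with 10% kept as input. With 1 library per line there was no replicate spread and no test between lines, so every difference is between libraries. Intervals are exact 95% intervals for counting error alone. Peak lists give no expression levels, so the tissue labels were not checked against marker genes.

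m6A is a methyl mark that a methyltransferase complex places on adenosines of a short consensus, in mRNA and in many non-coding RNAs, often in long internal exons. In such RNAs it is known to alter local structure and the binding of reader proteins. Some lncRNAs stay in the nucleus, as MALAT1 in nuclear speckles and NEAT1 in paraspeckles. Others such as NORAD act largely in the cytoplasm. Total RNA holds both pools.

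MIR17HG is the host transcript of a miRNA cluster, and marking of primary miRNA transcripts by m6A is a known step towards their processing. The main mature miRNAs of its 6 hairpins are shown here, from RefSeq on GRCh38.p14, because they are what the transcript is cut into. Capitals mark the seed, bases 2 to 8.
hsa-miR-17-5p: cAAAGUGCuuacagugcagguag
hsa-miR-20a-5p: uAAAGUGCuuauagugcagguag
hsa-miR-18a-5p: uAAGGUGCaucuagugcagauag
hsa-miR-19a-3p: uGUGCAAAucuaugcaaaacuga
hsa-miR-19b-3p: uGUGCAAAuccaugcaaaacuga
hsa-miR-92a-3p: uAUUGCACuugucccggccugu
These 6 miRNAs carry 4 seeds: miR-17-5p and miR-20a-5p share AAAGUGC, and miR-19a-3p and miR-19b-3p share GUGCAAA. The m6A consensus, a first base other than C, then A or G, then AC and a last base other than G, was searched on the transcribed strand. It occurred in 2 of the 6 hairpins, as AAACU in that of miR-19a and as AAACU and UGACU in that of miR-19b-1. Of all 1560 hairpins in the table, 72.2% held it. No list had a peak anywhere in the 7 kb span, from 92000000 to 92007000 on chromosome 13.

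IP reads and local input were worked back from the authors' deposited fold (summit over local background, a ratio) and −log10 p. All 38106 peaks gave whole IP reads. The peak names of each list ran from 1 to its last row with 0 numbers missing. The IP libraries held 1.38 M to 5.02 M reads (M for mega; values per M are per M reads of the library) and the inputs 1.61 M to 5.41 M, as kept by the peak caller. HCT15 stood apart: its list had 917 peaks against 8832 to 9998 in the others, and the caller had scaled its IP down to a shallower input. In 19 of the 21 lncRNA peaks the background was a whole number of input fragments at the summit, within 0.01 of a fragment. In the other 2 it was a mean over 1 kb. These counts make it possible to give IP and input side by side.

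COLO205 had 8 lncRNA peaks among its 9998, COLO320DM 6 among 8832, HCT116 4 among 9418, HT29 3 among 8941 and HCT15 0 among 917. The HCT15 count of 0 allows a share of up to 0.327% of that list (3 counts of 917; the exact 95% limit is 0.401%), above the 0.0336% to 0.0800% of the other lists, so a difference was not detectable there. Of the 1532 regions that the other 4 lists had in common, HCT15 held 1.89%. COLO320DM and COLO205 had peaks in all 4 genes, HCT116 in MALAT1, NEAT1 and TUG1, and HT29 in MALAT1 only. Input at a gene without a peak in a list is not known, so these absences are not shown to be traits of a line. Where peaks of different lists overlapped they were joined, and the 21 peaks formed 9 merged regions. COLO205 held 8 of these regions, COLO320DM 6, HCT116 4, HT29 2 and HCT15 0. Over all 22315 merged regions these lists held 42.4%, 38.1%, 40.2%, 38.3% and 3.59%. COLO320DM and COLO205 shared 5 lncRNA regions, HCT116 shared 3 with each of them, and HT29 shared 1 with HCT116 and 2 each with COLO320DM and COLO205. These counts rest on few regions. Without COLO205, 4 regions remained in at least 2 lists, and without COLO320DM also 4, against 7 of 9 with all lists. Of all merged regions, 36.0% were in at least 2 lists.

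**Figure D1:**
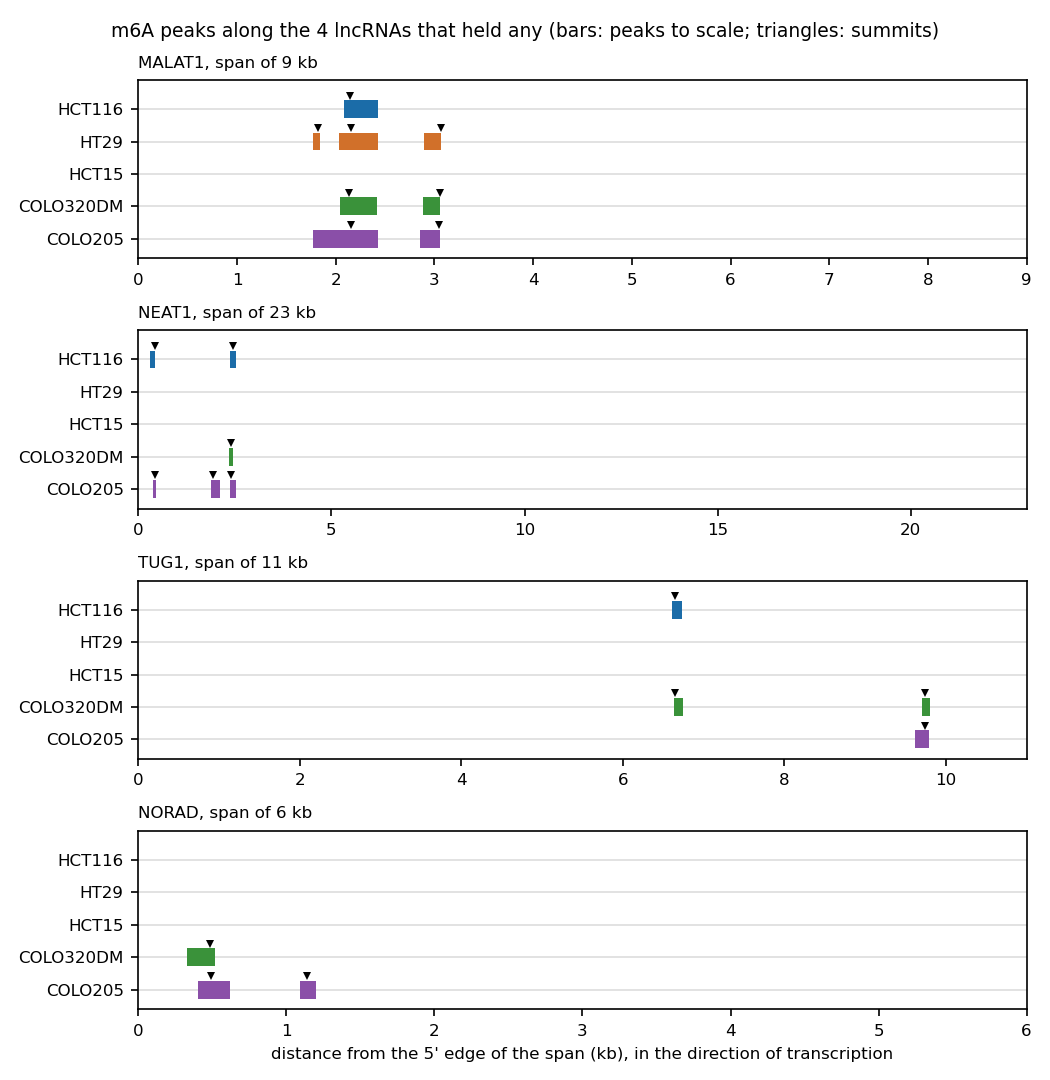
Peaks (bars, to scale) and summits (triangles) of the 5 lines along MALAT1, NEAT1, TUG1 and NORAD, by distance in kb from the 5' edge of the span. MALAT1 summits lie between 1.82 and 3.06 kb, NEAT1 summits in the first 2.46 kb of 23 kb and NORAD summits in the first 1.14 kb. TUG1 summits lie at 6.64 kb and beyond, and HCT15 has none.

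MALAT1, an abundant transcript of nuclear speckles that modulates splicing and gene expression, was the only lncRNA with peaks in 4 lists. Its main region ran from 65266767 to 65267432 on chromosome 11, 666 nt in all, and 4 lists had a summit in it at 2.13 to 2.16 kb from the 5' edge of the span. Of all merged regions, 8.37% were in at least 4 lists. The COLO320DM summit was at 65267132, that of HCT116 at 65267146, that of HT29 at 65267155 and that of COLO205 at 65267156, within 24 nt of each other. HT29 had a further peak in this region, with its summit at 65266826 on a peak of 76 nt, and the COLO205 peak of 664 nt covered both positions.

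At the main MALAT1 summit COLO205 had 95 IP reads (interval 76.9 to 116.1), HCT116 89 (71.5 to 109.5), HT29 80 (63.4 to 99.6) and COLO320DM 67 (51.9 to 85.1). Local input fragments were 56, 66, 55 and 34 in the same order. The authors' fold was 3.01, 2.16, 2.09 and 2.96. The peaks thus stood on deep IP coverage and on deep input coverage at once, and the fold was low in all 4 lists. With both set per M reads, the enrichment of IP over input was 3.07 in COLO205 (2.19 to 4.35) and 3.05 in COLO320DM (1.99 to 4.75), against 2.19 in HCT116 (1.57 to 3.06) and 2.12 in HT29 (1.49 to 3.05). The 4 intervals overlapped each other. All lay above 1, but each peak was listed because it had passed the caller's threshold over this local input, so that is no separate evidence. The additional HT29 summit had 46 reads on 21 input fragments, an enrichment of 3.20 (1.87 to 5.64).

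A second MALAT1 region, from 65267853 to 65268064, was held by HT29, COLO320DM and COLO205. Its peaks ended within 5 nt of each other, at 65268064, 65268061 and 65268059, with the summit 1, 0 and 16 nt before that end. The coverage was thus highest at or next to the 3' border of the peak in these lists. The summits had 77 IP reads in HT29, 71 in COLO320DM and 81 in COLO205, on 68, 66 and 87 input fragments. Enrichment was 1.65 (1.18 to 2.32), 1.66 (1.17 to 2.36) and 1.69 (1.23 to 2.31), the lowest of the 9 lncRNA regions. The −log10 q was 1.53, 1.33 and 1.99, close to the lowest of those lists, 1.30, 1.32 and 1.31. At these backgrounds the lowest −log10 p of each list needed 76 reads in HT29, 71 in COLO320DM and 78 in COLO205, so the peaks passed by at most 3 reads. All 3 were lost at a −log10 q of at least 5. HCT116 had no peak here. Whether it lacks the enrichment or missed so narrow a margin was not tested.

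NEAT1, the architectural RNA of paraspeckles, is transcribed as a short and a long isoform that share their 5' end. All 6 of its peaks had their summit in the first 10.7% of the 23 kb span, and no list had a summit further along. Where the isoforms end was not read here. Input over the rest of the span is not known, so absence of RNA, of the mark and of reads cannot be told apart there. HCT116 and COLO205 shared a region from 65190315 to 65190457 on chromosome 11, with summits 11 nt apart, about 0.42 kb from the 5' edge. It had 43 IP reads on 24 input fragments in HCT116 and 30 on 16 in COLO205. The enrichments were 2.91 (1.73 to 5.01) and 3.40 (1.79 to 6.67). COLO205 alone had a peak from 65191883 to 65192117, with 26 reads on 10 fragments and an enrichment of 4.71 (2.20 to 10.9).

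The NEAT1 region from 65192361 to 65192525 was in HCT116, COLO320DM and COLO205. Regions in at least 3 lists made up 18.1% of all merged regions, and 3 of the 9 lncRNA regions. The IP had 38 reads in HCT116, 44 in COLO320DM and 25 in COLO205, over 14, 16 and 7 input fragments. The authors' fold was 4.05, 3.97 and 5.34. Enrichment was 4.41 in HCT116 (2.33 to 8.81), 4.25 in COLO320DM (2.35 to 8.07) and 6.47 in COLO205 (2.72 to 17.7), with overlapping intervals. The levels were nearly equal in HCT116 and COLO320DM, at 27.5 and 29.9 IP reads per M, a ratio of 0.922 (0.581 to 1.46). COLO205 had 8.37 per M, and HCT116 exceeded it 3.29 times (1.94 to 5.69). HT29 and HCT15 had no peak in NEAT1.

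The peaks nearest to the NEAT1 span lay outside it by 10.6 to 10.7 kb in the 4 long lists. HCT116, HT29 and COLO205 had theirs on the side of the 5' edge, with summits at 65179304, 65179293 and 65179284 and folds of 9.48, 3.91 and 8.86. COLO320DM had one on the other side with a fold of 3.82 and 3 reads. In flanks as long as the span on either side, NEAT1 had these 4 peaks over all lists. The same flanks of the other 6 genes held 0.

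KCNQ1OT1 is a nuclear antisense RNA of an imprinted domain, known for silencing neighbouring genes in cis. Its span, from 2629000 to 2722000 on chromosome 11, was with 93 kb the longest of the 7 and held no peak in any list. The nearest peaks of the long lists were 113.4 to 339.0 kb away. Genome-wide the 5 lists together had 0.121 peaks per 10 kb, against 8.89 in MALAT1, 5.00 in NORAD, 3.64 in TUG1 and 2.61 in NEAT1. The genome-wide value covers all chromosome sequence, transcribed or not, and a density over expressed genes was not determined. Without the input counts over the KCNQ1OT1 span, absence of the RNA, absence of the mark and too few reads cannot be told apart.

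NORAD is a cytoplasmic RNA known for binding PUMILIO proteins and for its part in genome stability. It is read from the minus strand, and its peaks lay near the 5' edge of its 6 kb span on chromosome 20. The region from 34638385 to 34638668 was in COLO320DM and COLO205, with summits at 34638518 and 34638511. COLO320DM had 39 IP reads on 24 input fragments and a fold of 2.42, and COLO205 had 41 on 18 and a fold of 3.84. The enrichments were 2.51 (1.47 to 4.37) and 4.13 (2.32 to 7.63). COLO205 also had a peak from 34637804 to 34637906 with 30 reads, a fold of 6.23 and an enrichment of 7.55 (4.83 to 11.5) over the mean of 96 input fragments in 1 kb. HCT116, HT29 and HCT15 had no NORAD peak.

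TUG1, a widely expressed RNA first described for its response to taurine in retina, held the highest enrichment of the lncRNAs in each of its 3 lists, on low input. The region from 31374621 to 31374802 on chromosome 22, 9.74 kb along a span of 11 kb, was in COLO320DM and COLO205. Their summits were at the same base, 31374746. COLO205 had 20 IP reads on 1 input fragment and COLO320DM 27 on 5. The authors' fold was 13.5 in COLO205, at percentile 96.9 of that list, and 6.61 in COLO320DM, at percentile 72.2. Enrichment was 36.2 in COLO205, where the lone input fragment leaves it anywhere from 5.79 to 1501, and 8.35 in COLO320DM (3.17 to 27.8). The intervals overlapped.

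The other TUG1 region, from 31371612 to 31371740, was in HCT116 and COLO320DM, with summits 5 nt apart. HCT116 had 10 IP reads and a fold of 5.72, over a mean of 1.5 input fragments from 20 counted in 1 kb. COLO320DM had 12 reads over 4 fragments at the summit itself and a fold of 3.62. It needed 11 reads to reach the lowest −log10 p of its list. IP reads per M were 7.25 and 8.15, a ratio of 0.890 (0.344 to 2.25). The enrichments, over these unlike input windows, were 10.8 (4.53 to 24.2) and 4.64 (1.41 to 19.7). The data held too few reads to set these lists apart.

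OIP5-AS1, known as cyrano and for directing decay of the miRNA miR-7, held no peak in its 26 kb span from 41576000 to 41602000 on chromosome 15. The nearest peaks in the long lists were 86.8 to 155.0 kb away. With KCNQ1OT1 and MIR17HG it makes 3 of 7 lncRNAs without a peak under the deposited thresholds. How often other genes or windows of the same length held no peak was not tested. At the genome-wide 0.121 peaks per 10 kb over all lists, spans as short as those of OIP5-AS1 and MIR17HG would mostly be empty. That does not cover KCNQ1OT1 with its 93 kb, and the density includes sequence that is not transcribed. Whether the absence is a trait of any of these 3 genes was not tested. The 3 also had none when any overlap with the span counted or the spans were widened by 1 kb. Those settings could not have changed this, because the nearest peaks lay at least 86.8 kb from the 3 spans.

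**Figure D2:**
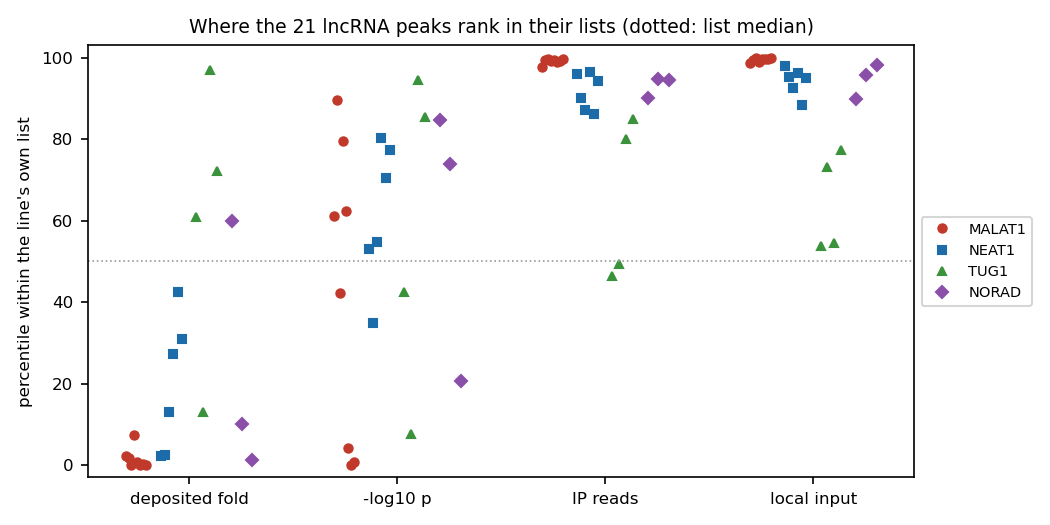
Percentile of each of the 21 lncRNA peaks within its own line's list, for the deposited fold, the −log10 p, the recovered IP reads and the local input fragments (symbols: genes; dotted line: list median). MALAT1 peaks sit at percentiles 0.0250 to 7.51 for fold, 97.8 to 99.8 for IP reads and 98.7 to 99.9 for input.

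Within their own lists most lncRNA peaks ranked low by fold and high by reads. Of the 21, 17 were below the median fold of their list and 11 in its lowest 10%, while 19 were above its median IP reads and 21 above its median local input. MALAT1 gave 8 of the 11 in the lowest 10%, NEAT1 2, NORAD 1 and TUG1 0. The 21 peaks came from 9 regions, so several were the same place in different lists. A fold of at least 4 was reached by 7 of 21, against 80.3% of all peaks. A −log10 q of at least 5 was reached by 14 of 21, against 56.4% of all peaks. At least 1 local input fragment underlay 21 of 21, against 51.9%. The median fold was 3.15 over the 21 peaks and 5.48 over all peaks of the 5 lists, and the median IP reads were 41 against 10 in the 4 long lists. Above the median fold were 1 NORAD peak and 3 of the 4 peaks of TUG1. The local input of TUG1 was 1 to 5 fragments, against 7 to 87 in the other 3 genes.

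The span of possible folds was narrow at the best covered summits. The highest recovered count in any peak was 150 in HCT116 and COLO205 and 146 in COLO320DM, in IP and input alike. These are exactly 2 times the shortest peak of the list, 75 nt and 73 nt, taken as the fragment length. That is the most a caller can pile up when it keeps 1 read per start and strand. HT29 stayed below, with 134 IP reads and 128 input fragments. MALAT1 IP reads were 30.7% to 63.3% of this ceiling and its input 14.0% to 58.0%. With IP reads at the ceiling, the fold could have reached 3.08 to 9.81 at the 8 MALAT1 backgrounds, and less than 4 at 5 of them. The lowest fold that would have passed was 1.61 to 2.14. At the TUG1 backgrounds the bounds were 34.7 to 97.3 and 3.31 to 4.16. How duplicates were treated is not given in the sources used here, and the part of this ceiling in the low MALAT1 folds was not tested.

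**Figure D3:**
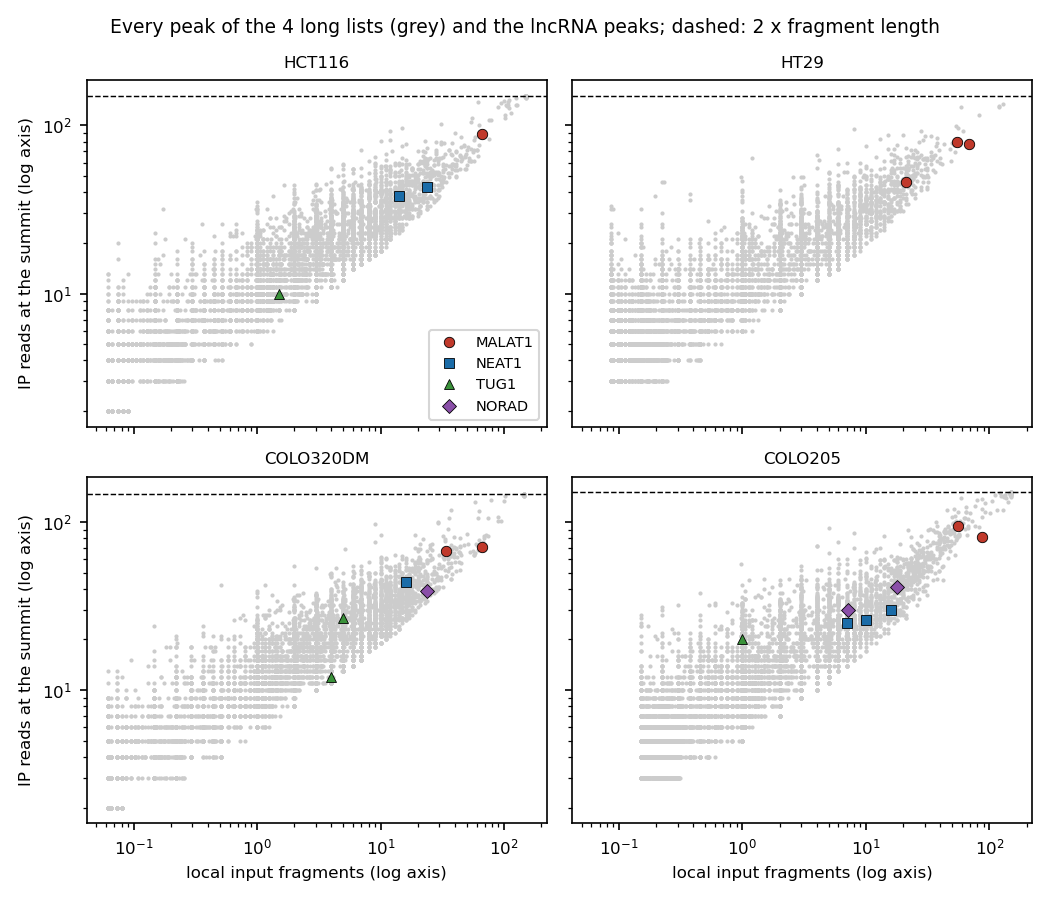
IP reads at the summit against local input fragments, both on log axes, for all peaks of the 4 long lists (grey) and the lncRNA peaks (coloured by gene); the dashed line is 2 times the fragment length. MALAT1 peaks sit among the deepest in both, with 46 to 95 IP reads, and TUG1 peaks at 10 to 27.

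Lines were then compared within the 7 regions that at least 2 lists held, 16 pairs of lists in all, with the summit of most reads in each list. Summits of a pair lay 0 to 67 nt apart, with a median of 11 nt. In 15 of the pairs both summits had whole input fragments, so that the ratio of IP reads per M and the ratio of enrichments could each be given an exact 95% interval. The interval of the reads ratio left out 1 in 10 of the 15 pairs, and that of the enrichment ratio in 0 of the 15. The pairs are not independent, since the same counts enter several of them. Most of those whose reads ratio left out 1 included the single COLO205 library. Each ratio followed the order of the lists, so COLO205 was always the line divided by. The remaining pair, HCT116 over COLO320DM in TUG1, had an enrichment ratio of 2.33 without such an interval. The enrichment ratios of the 15 pairs ran from 0.230 to 1.04. Their intervals were wide: COLO320DM over COLO205 in NORAD had an enrichment ratio of 0.609 (0.267 to 1.38) and a reads ratio of 1.93 (1.21 to 3.07). No difference in enrichment was thus shown at these depths, which does not show that the lines were alike.

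**Figure D4:**
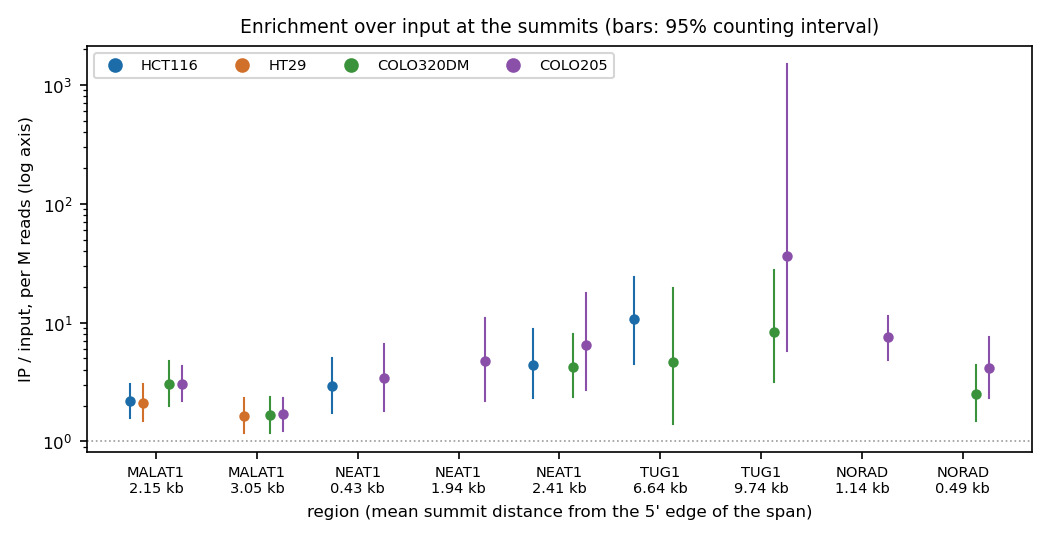
IP over input per M reads at the summit of each lncRNA region, on a log axis. Points are lines, bars the exact 95% counting interval, and the dotted line no enrichment. The input is a mean over 1 kb for TUG1 in HCT116 and for the NORAD region held by COLO205 alone. The second MALAT1 region lies lowest, at 1.65 to 1.69, while the main one, at 2.12 to 3.07, overlaps the values of NEAT1 and NORAD; the intervals of the lines overlap in every shared region; the widest is TUG1 in COLO205.

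By the summit of most reads in each list, COLO205 had the lowest IP reads per M, the lowest input per M and the highest enrichment in 6 of the 6 regions it shared. The additional HT29 summit in the main MALAT1 region, left out by this choice, went the other way. It had 21.6 IP reads and 6.77 input fragments per M and an enrichment of 3.20, against 31.8, 10.4 and 3.07 in COLO205. In the second MALAT1 region the lead of COLO205 in enrichment was 1.69 against 1.66 and 1.65. With reads and input corrected for a limit of 1 read per start and strand it was the lowest there, at 1.62 against 1.71 in COLO320DM and 1.74 in HT29, and the highest in 5 of 6 regions. At the main MALAT1 summit it had 31.8 IP reads per M, against 64.5 in HCT116, 45.5 in COLO320DM and 37.6 in HT29, and 10.4 input fragments per M against 29.5, 14.9 and 17.7. In NORAD it had 13.7 IP reads and 3.33 input fragments per M, against 26.5 and 10.5 in COLO320DM. The pattern was also common elsewhere. Over the 5985 regions COLO205 shared with another long list, it was lowest in IP reads per M in 78.8%, lowest in input in 61.6% and highest in enrichment in 42.4%. In the 212 of these with at least 10 input fragments in each list the shares were 78.8%, 80.2% and 66.0%. Of the 6 lncRNA regions 4 met this condition, and COLO205 held each of these places in 4 of 4. COLO205 was also the deepest of the long lists, with 2.99 M IP reads and 5.41 M input reads. The part of depth in this order was not tested.

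**Figure D5:**
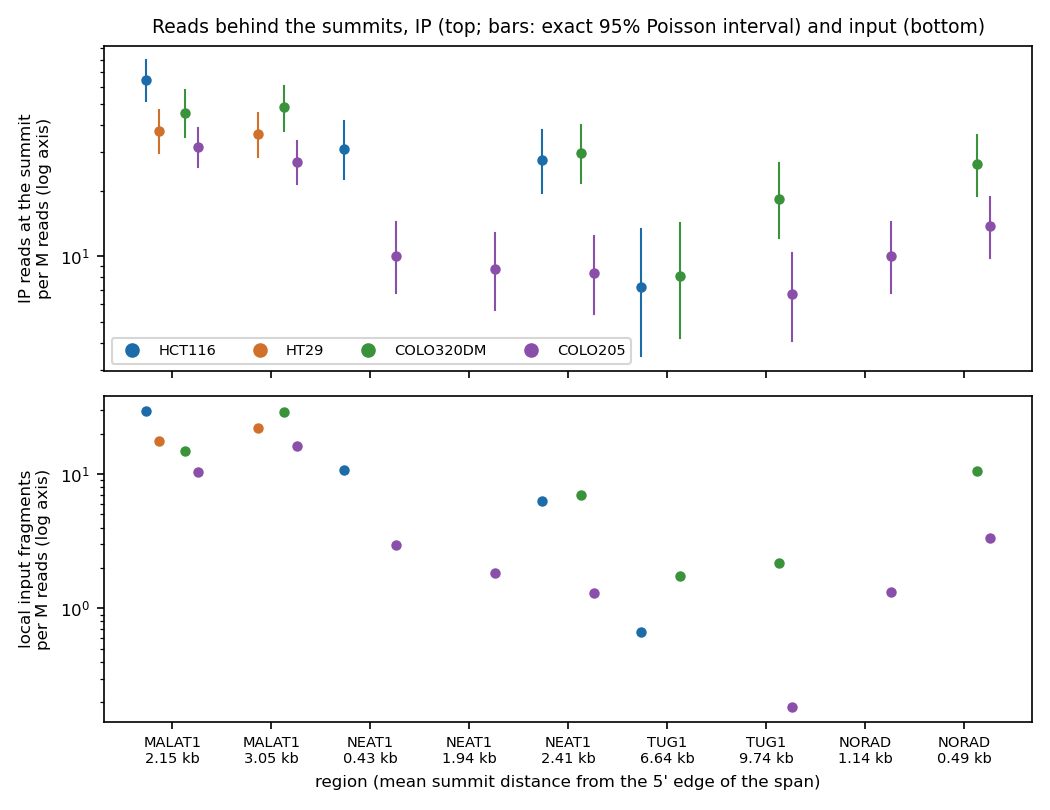
IP reads (top, with exact 95% Poisson intervals) and local input fragments (bottom) per M reads in each lncRNA region, on log axes, by line. The summit of most reads is drawn for each line. COLO205 is lowest in both panels in each region it shares; values span 6.69 to 64.5 IP reads and 0.185 to 29.5 input fragments per M.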

How the data were processed

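Per the submitters' processing notes, cutadapt, FastQC, BWA and MACS2 were used with the build hg19; versions, parameters and order are not given in the sources used here. The authors' deposited lists, 1 per IP library and none pooled, hold for each peak a fold (ratio), a −log10 p, a −log10 q and a score derived from the −log10 q. IP reads and local background were recovered from the deposited fold, taken as (reads + 1) / (background + 1), and −log10 p, taken as the Poisson chance of more reads, within 0.001. In HCT15 each IP read counted as 0.322. The input of the same line was assumed to be the caller's control. On data simulated with the same formula 100% of 961 unscaled and of 459 scaled peaks were recovered. That checks the code, not whether the formula holds for these lists. Backgrounds averaged over 1 kb were not simulated. Depths assume a genome of 2.7 Gb. Coordinates count from 1. Regions were merged on chromosomes 1 to 22, X and Y over an overlap of 1 nt. Strands came from the RefSeq promoter table (5 genes) and general knowledge (NEAT1, KCNQ1OT1). No hg19 genome was used here, so peak sequences were not analysed. Members, spans and alternatives were chosen with earlier results of these data known; the ceiling on reads, the exact conditional intervals of enrichment ratios, the shares by deepest list and the order of the percentiles were examined after the values were seen. Each of the 7 genes was described in every list; peaks were named if strongest in a list, in at least 3 lists, or if a gene had at most 3 in a list. The software was scipy 1.17.1, pandas 2.3.3, matplotlib 3.10.9, numpy 2.4.6 and Python 3.11.15.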

Additional observations from a re-analysis of the deposited data

How the results depend on the processing

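No analysis across replicates was possible because each line has 1 IP and 1 input library. Enrichments set each IP against the input taken to be that of the same line. The counts of lncRNA peaks depended on the threshold. With a fold of at least 4 COLO205 kept 4, HCT116 2, COLO320DM 1 and HT29 0, and MALAT1 kept 0 of 8. With the 917 strongest peaks of each list COLO205 kept 1, in TUG1, and the others 0. With a −log10 q of at least 5, COLO320DM had 3 peaks, MALAT1 5 of 8 and TUG1 2 of 4, and 3 regions were in at least 2 lists. MALAT1 also had 5 with 1 −log10 p threshold for all lists; the second MALAT1 region was lost in both settings. Leaving out the COLO320DM or the COLO205 list gave 4 regions in at least 2 lists and 1 in at least 3, against 7 and 3. The highest input at a COLO320DM MALAT1 peak was 66.0 fragments. Flanks 2 times as long as the span held 0.435 peaks per 10 kb at NEAT1 and 0.403 at KCNQ1OT1. Choosing the strongest peak by fold changed no peak. A pseudocount of 0 recovered 0 of the 12 strongest peaks, so it gave no values. Correcting reads and input for 1 read per start and strand, chosen after seeing the data, gave MALAT1 enrichments of 1.62 to 3.89, against 1.65 to 3.20. Depth limits TUG1 most, where 1 input fragment sets the COLO205 value.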
